A study of Homo sapiens with 22 samples.

Results

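The genes described here encode the machinery that takes a human cell from G1 into S phase: the D cyclins CCND1, CCND2 and CCND3, the E cyclins CCNE1 and CCNE2, the kinases CDK2, CDK4 and CDK6, and the pocket proteins RB1 and RBL2. They were chosen by symbol, 10 of the 35237 genes in the table of raw counts, with earlier results of these data known. All 10 symbols were found. RNA had been sequenced from 22 samples of the human neuroblastoma lines SK-N-AS and GIMEN, both long established in culture and both classed in the labels as mesenchymal (MES). The study compared untreated cells with cells differentiated by PP121, an inhibitor of tyrosine kinases and of the PI3K family, with or without bufalin, a cardiac steroid that blocks the sodium pump.

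SK-N-AS gave 4 groups of 4 libraries. Untreated cells grew in DMEM with 10% FBS. Group S1D4 had 5 µM PP121 in DMEM with 1% FBS for 4 days. Groups S2D4 and S2D30 began as S1D4 cells and were moved to Neurobasal with B27, in 5 µM PP121 plus 100 nM bufalin, for 4 and 30 days. GIMEN gave 2 groups of 3 libraries, untreated in RPMI with 10% FBS, and D30, in RPMI with 1% FBS, 2.5 µM PP121 and 10 nM bufalin for 30 days. Serum or medium changed together with the drugs in each treated group, so drug, serum and medium cannot be told apart. The labels do not say that replicates came from separate cultures, and the p-values then measure only the spread between these libraries.

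Library totals ran from 16456484 to 37506800 counts. Levels are given as CPM, that is, counts brought to a common library size with 1 scaling over all 22 libraries. Of the 8 mesenchymal markers, all were detected in both lines, with summed levels of 864 to 1378 CPM in untreated SK-N-AS and 37873 to 39461 CPM in untreated GIMEN. Most of the GIMEN sum was FN1 (31491 CPM on average, against 60.3 CPM in untreated SK-N-AS). In the 30-day groups the markers summed to 3068 to 3766 CPM in S2D30 and to 20853 to 23867 CPM in GIMEN D30. Untreated SK-N-AS also had all 8 adrenergic markers (1572 to 1763 CPM in sum), which in S2D30 summed to 178 to 226 CPM. In untreated GIMEN, PHOX2A and TH were at 0. The 8 leukocyte markers summed to 170 to 216 CPM in untreated SK-N-AS, 78.1 to 97.3 CPM in S1D4, 101 to 158 CPM in S2D4 and 99.9 to 151 CPM in S2D30, and to 88.7 to 99.7 CPM in untreated and 175 to 407 CPM in D30 GIMEN. Most of the sum was PTPRC in untreated SK-N-AS (177 ± 20.9 CPM, and 0.850 ± 0.360 CPM in S2D30) and CD68 in S2D30 (123 ± 27.4 CPM, and 13.2 ± 4.61 CPM untreated; SD, n = 4), and CD3E and MS4A1 were at 0 in all SK-N-AS libraries. The part of these marker shifts in the results was not tested. The library S2D4 replicate 4 stood apart from its group: its correlation with the other 3 over log2 CPM was 0.967 to 0.969, where these correlated with each other at up to 0.990. Untreated SK-N-AS replicate 4 stood apart in several of the genes below. Some results are given with and without either library, and some as a range over all settings run, which include leaving out each library.

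In G1, D cyclins bind CDK4 or CDK6 and E cyclins bind CDK2. The active kinases phosphorylate RB1 and its relatives RBL1 and RBL2. Unphosphorylated pocket proteins hold E2F transcription factors, and their release turns on CCNE1, CCNE2, CDK2, several E2F genes and the genes of DNA replication. RBL2 is the pocket protein typical of resting cells, where it joins the MuvB core in a repressor complex. In neuroblastoma, CCND1 and CDK4 are known for high expression, and D cyclin kinases have been studied as drug targets.

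Because several of these genes are read by E2F or by MYC-type factors, the sequences before their start sites are of interest beside the expression values. RefSeq promoter entries on GRCh38.p14, each 250 bases before to 50 after a start, were matched for 6 of the 10 genes (CCND3, CCNE1, CDK4, CDK6, RB1 and RBL2), with 10 entries in all. An entry is a start that RefSeq lists and need not be the main one. The only RB1 entry (chr13:48476200-48476499) may not be at its main start, so its lack of a word may not apply to that start. The words TTTCGCGC, TTTGGCGC and TTTCCCGC, taken as typical E2F sites on either strand, were in none of these entries. Of the 35116 RefSeq entries of that length, 2.74% held at least 1 of the words. Of the 11 E2F and pocket protein partners, 9 had entries and 5 held a word: RBL1, E2F1, E2F2, E2F3 and TFDP1. The E-box CACGTG, which is its own reverse complement, was in entries of CDK4 and CDK6, against 7.26% of all entries. CDK4 has 3 copies, with first bases at -216, -196 and -101 from the start. CDK6 has 1 copy, at base 31 after the start of its first entry. The E2F words of RBL1 begin at -26 and -16 and that of E2F1 at -20. These are letter matches in short windows, and no match in a window says only that the letters are not there. Shown are the bases before the start of CDK4 (chr12:57752311-57752560), RBL1 (chr20:37095998-37096247) and E2F1 (chr20:33686386-33686635), and a short window of CDK6 (chr7:92836526-92836555), all on the minus strand and written 5′ to 3′ with the matched words in capitals.
CDK4: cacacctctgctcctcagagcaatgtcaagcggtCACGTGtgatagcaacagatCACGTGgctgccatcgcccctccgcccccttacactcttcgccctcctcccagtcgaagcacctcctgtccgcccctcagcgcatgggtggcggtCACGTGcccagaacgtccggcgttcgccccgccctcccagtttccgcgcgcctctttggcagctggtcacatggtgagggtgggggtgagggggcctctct
CDK6: cgaggccgcggaCACGTGcggagagccgac
RBL1: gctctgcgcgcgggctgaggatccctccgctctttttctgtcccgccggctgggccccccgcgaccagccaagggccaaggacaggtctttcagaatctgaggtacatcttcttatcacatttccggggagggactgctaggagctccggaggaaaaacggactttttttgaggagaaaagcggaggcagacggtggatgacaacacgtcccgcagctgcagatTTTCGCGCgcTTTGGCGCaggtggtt
E2F1: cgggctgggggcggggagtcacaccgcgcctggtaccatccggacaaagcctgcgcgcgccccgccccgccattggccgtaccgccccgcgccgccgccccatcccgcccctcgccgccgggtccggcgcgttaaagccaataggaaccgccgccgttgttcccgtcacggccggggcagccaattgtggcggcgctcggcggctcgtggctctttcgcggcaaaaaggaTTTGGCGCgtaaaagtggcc

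Changes were tested on the counts with edgeR's quasi-likelihood test over all genes, and a gene was called where its adjusted p was under 0.05. In S1D4, 7 of the 10 genes were lower than in untreated SK-N-AS and 0 higher, where 40.1% of all genes tested were called, 17.6% higher and 22.4% lower. For the same 7 genes, the S1D4 and untreated libraries did not overlap (38.3% of all genes). In S2D4, 1 was higher and 6 lower (63.1% of all genes called, 30.9% higher and 32.2% lower), and 6 of the 10 did not overlap (51.2% of all genes). CCND2 passed the filter on low counts in SK-N-AS through S2D30 alone and is left out of the S2D30 counts. Of the other 9 genes, 2 were higher in S2D30 and 7 lower, where 70.3% of all genes were called, 33.8% higher and 36.5% lower. None of the 9 genes other than CCND2 overlapped (66.4% of all genes did not). In GIMEN D30, CCND2 did not pass the filter, and of the 9 genes tested 2 were higher and 7 lower, where 71.4% of all genes were called, 35.5% higher and 36% lower. None of the 9 overlapped (75.4% of all genes did not). The median log2 fold change of the 9 genes other than CCND2 was -0.54, -0.60, -1.05 and -0.82 in these comparisons, and that of all genes lay between -0.034 and 0.016. CCND3, CCNE1, CCNE2, CDK2 and CDK4 were lower in all 4 comparisons with untreated cells, CDK6 and RB1 in 3 of them. Of the 9 genes other than CCND2, CCND1 and RBL2 were called higher in at least 1 of these comparisons. The 3 SK-N-AS comparisons share their untreated libraries. In bulk RNA, fewer cells carrying a transcript and less of it per cell cannot be told apart. Leaving out untreated SK-N-AS replicate 4 gave 0 higher and 7 lower in S1D4, 2 and 5 in S2D4, and 7 lower in S2D30. Leaving out S2D4 replicate 4 gave 2 higher and 7 lower in S2D4.

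**Figure D1:**
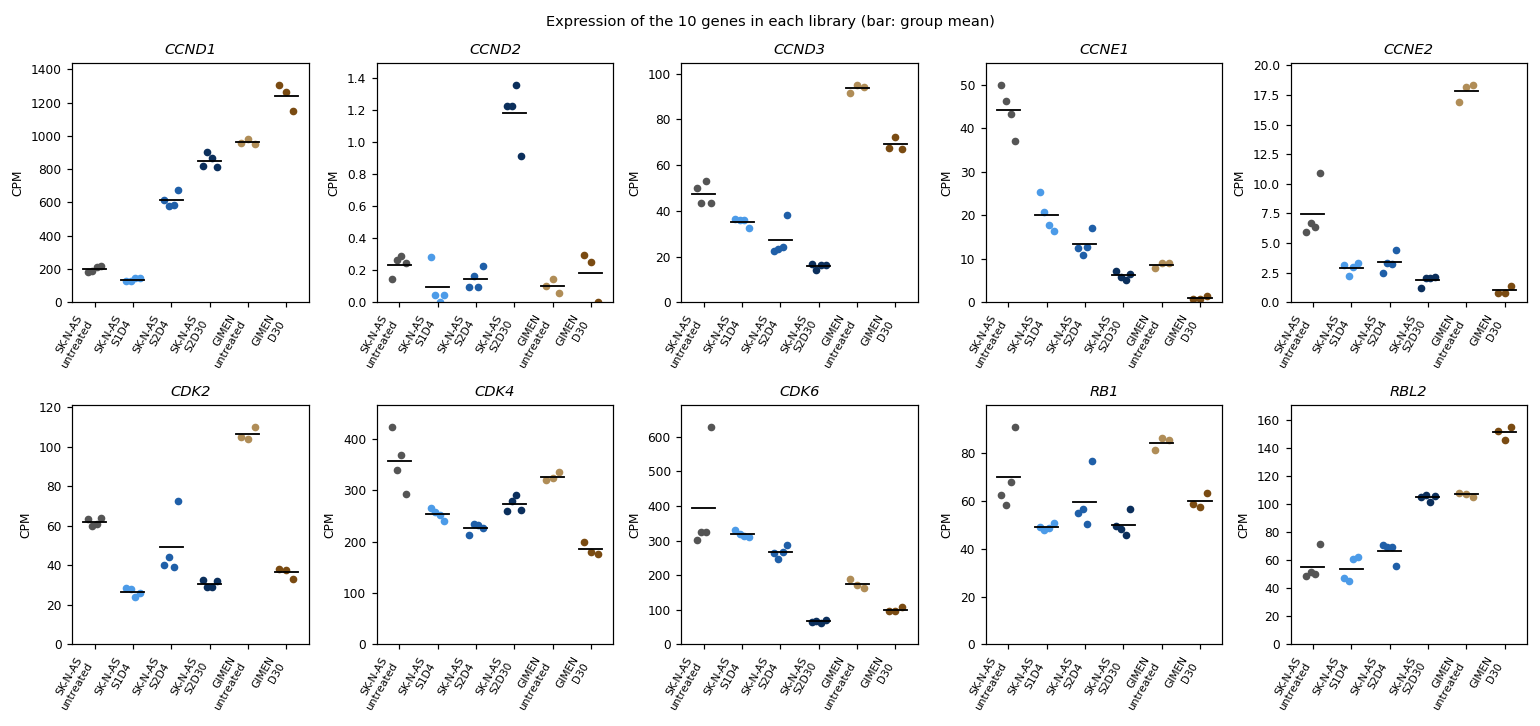
Level of each gene in each of the 22 libraries, 1 panel per gene; the vertical axis is CPM on a linear scale from 0, points are libraries and bars are group means. CCNE1 and CCNE2 stand at 1.00 CPM on average in GIMEN D30, CCND1 is higher in S2D4 and S2D30 than in untreated SK-N-AS, and CDK6 is at 629 CPM in untreated SK-N-AS replicate 4 against 302 to 326 CPM in the other 3.

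CCND1 encodes cyclin D1, the D cyclin that growth factor signalling induces and an activator of CDK4 and CDK6. Its level in untreated SK-N-AS was 180, 186, 215 and 219 CPM in replicates 1 to 4. In S1D4 it was 129, 126, 146 and 144 CPM. All S1D4 libraries were below all untreated libraries, and the fall was 1.49-fold (log2 fold change -0.58, SE 0.08, edgeR adjusted p 5.85e-05). In S2D4 the libraries read 613, 580, 587 and 675 CPM, and in S2D30 they read 817, 902, 870 and 811 CPM. Both groups lay above untreated cells with no overlap, with log2 fold changes of 1.58 (SE 0.09, edgeR adjusted p 2.01e-10) and 2.05 (a 4.15-fold rise, SE 0.09, edgeR adjusted p 4.73e-12). Between S1D4 and S2D4, when bufalin was added and serum replaced, CCND1 rose 4.47-fold (log2 2.16, SE 0.09, edgeR adjusted p 3.92e-11), and from S2D4 to S2D30 a further 1.38-fold (edgeR adjusted p 0.000208).

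GIMEN started from a higher CCND1 level, 959, 981 and 950 CPM untreated, and D30 libraries had 1307, 1264 and 1149 CPM. The D30 libraries were all above the untreated ones, with a rise of 1.26-fold (log2 0.34, SE 0.07, edgeR adjusted p 0.000869). The 30-day change was smaller in GIMEN than in SK-N-AS by 1.70 on the log2 scale (95% interval -1.96 to -1.44, edgeR adjusted p 8.96e-09). In order of mean level the groups ran S1D4, untreated SK-N-AS, S2D4, S2D30, untreated GIMEN and GIMEN D30. Under the scaling used, no neighbours in this order overlapped. Counts over library totals, without scaling factors, did overlap between S2D30 and untreated GIMEN. Exons on the opposite strand of ORAOV1 (LTO1) overlap 11.3% of CCND1, and the sources used here do not say whether counting used strand. ORAOV1, looked up after its values were seen, changed by 0.54 and 0.65 on the log2 scale in S2D4 and S2D30.

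CCND2, which encodes cyclin D2, was near the detection limit. Untreated SK-N-AS libraries held 6, 6, 6 and 8 counts, S1D4 libraries 7, 1, 0 and 1 and S2D4 libraries 2, 3, 2 and 7. S2D30 libraries held 28, 24, 30 and 21 counts, all above every other SK-N-AS library, or 0.912 to 1.36 CPM. Because the gene passed the filter in this line through that group, its S2D30 values are a description, and no test of them is used. S1D4 (-1.23, 95% interval -2.55 to 0.09) and S2D4 (-0.63, 95% interval -1.86 to 0.60) were not called. Without S1D4 replicate 1, the S1D4 value was -2.77 (edgeR adjusted p 0.00341). In GIMEN the untreated counts were 2, 3 and 1 and the D30 counts 5, 4 and 0, so no difference was detectable there at this depth.

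CCND3 encodes cyclin D3, the third partner of CDK4 and CDK6. Untreated SK-N-AS libraries had 50.1, 43.4, 53.3 and 43.6 CPM, and S1D4 libraries 36.3, 35.9, 35.8 and 32.3 CPM. In S2D4 the values were 22.4, 23.4, 24.4 and 38.2 CPM, with replicate 4 above the other 3. S2D30 had 16.8, 14.2, 16.4 and 16.3 CPM. Each treated group was below untreated cells without overlap, and S2D4 overlapped with S1D4 through its replicate 4. The falls were 1.38-fold in S1D4 (log2 -0.47, SE 0.14, edgeR adjusted p 0.0142), 1.80-fold in S2D4 (-0.84, SE 0.14, edgeR adjusted p 6.65e-05) and 3.06-fold in S2D30 (-1.61, SE 0.15, edgeR adjusted p 3.69e-08). Over all settings run the S2D4 value ranged from -1.06 to -0.76. The step from S1D4 to S2D4 was called (-0.38, edgeR adjusted p 0.0316), and was no longer called under 8 alternatives, with an adjusted p of up to 0.106 without S2D4 replicate 1. Without S2D4 replicate 4 it was -0.59.

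In GIMEN, CCND3 was at 91.7, 95.2 and 94.4 CPM untreated and at 67.7, 72.4 and 67.3 CPM in D30. The groups did not overlap, and the fall was 1.38-fold (log2 -0.47, SE 0.06, edgeR adjusted p 2.19e-05). The 30-day fall was smaller than in SK-N-AS by 1.16 on the log2 scale (95% interval 0.88 to 1.44, edgeR adjusted p 1.95e-06).

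Levels per kilobase of exon allow genes to be compared as far as the GENCODE v29 exon lengths match what was counted. The annotation and strand setting of the counts are not known, and exons of other genes on the same strand overlap 15.3% of CCND2. Per kilobase, the 3 D cyclins summed to 57.5 ± 4.67 CPM per kb in untreated SK-N-AS and to 39.9 ± 2.07 CPM per kb in S1D4 (SD, n = 4). The sum was 146 ± 11.5 CPM per kb in S2D4 and 197 ± 9.77 CPM per kb in S2D30 (SD, n = 4). CCND1 made up 78.9% ± 2.26 of that sum in untreated cells and 77.6% ± 1.98 in S1D4 (SD, n = 4). Its share was 95.3% ± 0.894 in S2D4 and 97.8% ± 0.231 in S2D30, and no S2D4 or S2D30 library overlapped with the earlier groups. The share of CCND3 went from 21.1% ± 2.27 in untreated cells to 2.06% ± 0.231 in S2D30, and that of CCND2 was at most 0.112% in any library. In GIMEN the sum was 242 ± 3.85 CPM per kb untreated and 299 ± 18.8 in D30 (SD, n = 3), with a CCND1 share of 90.2% ± 0.171 and 94.1% ± 0.353. D cyclin RNA in both lines was thus mostly CCND1, and the share of CCND1 was higher in the 30-day groups of both lines, with no overlap with untreated libraries.

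CCNE1 encodes cyclin E1, the activator of CDK2 at the entry into S phase. Its libraries had 49.98, 46.2, 43.3 and 37.0 CPM in untreated SK-N-AS and 25.4, 20.7, 17.7 and 16.5 CPM in S1D4. In S2D4 they had 12.6, 10.8, 12.7 and 17.2 CPM, and in S2D30 7.28, 5.78, 5.21 and 6.39 CPM. Every treated library was below every untreated one, S2D4 overlapped with S1D4, and S2D30 lay below both. The fall was 2.24-fold in S1D4 (log2 -1.16, SE 0.16, edgeR adjusted p 3.26e-05), 3.39-fold in S2D4 (-1.76, SE 0.17, edgeR adjusted p 1.09e-07) and 7.34-fold in S2D30 (-2.88, SE 0.17, edgeR adjusted p 2.93e-10). The steps from S1D4 to S2D4 (-0.60, edgeR adjusted p 0.00536) and from S2D4 to S2D30 (-1.11, edgeR adjusted p 4.47e-05) were both called.

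Untreated GIMEN had less CCNE1 than untreated SK-N-AS, 7.84, 9.04 and 9.10 CPM, a difference of 5.05-fold (log2 -2.34, SE 0.16, edgeR adjusted p 9.52e-10). In D30 it was at 0.763, 0.762 and 1.48 CPM, from 13, 12 and 23 counts. The D30 libraries were all far below the untreated ones, an 8.81-fold fall (log2 -3.14, SE 0.25, edgeR adjusted p 4.54e-07). The 30-day changes of the lines were not called different for CCNE1, with an interval for GIMEN minus SK-N-AS of -0.86 to 0.36 on the log2 scale.

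CCNE2 encodes cyclin E2, a second activator of CDK2. Untreated SK-N-AS had 5.94, 6.73, 6.39 and 10.9 CPM, with replicate 4 above the other 3. S1D4 had 3.17, 2.21, 2.95 and 3.28 CPM, S2D4 2.51, 3.31, 3.25 and 4.41 CPM, and S2D30 1.23, 2.05, 2.04 and 2.13 CPM. All treated libraries were below all untreated ones, and S1D4 and S2D4 overlapped. The falls were 2.61-fold in S1D4 (log2 -1.39, SE 0.24, edgeR adjusted p 0.000217), 2.26-fold in S2D4 (-1.18, SE 0.23, edgeR adjusted p 0.000351) and 4.12-fold in S2D30 (-2.04, SE 0.25, edgeR adjusted p 1.27e-06). Over all settings run the log2 fold changes ranged from -1.46 to -1.15 in S1D4, from -1.34 to -0.94 in S2D4 and from -2.11 to -1.80 in S2D30. S2D4 did not differ by the test from S1D4 (0.21, 95% interval -0.30 to 0.72).

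In GIMEN, CCNE2 was higher at the start than in SK-N-AS, 16.9, 18.2 and 18.4 CPM, a difference of 2.41-fold (log2 1.27, SE 0.21, edgeR adjusted p 2.96e-05). Over all settings run this difference ranged from 1.12 to 1.49 on the log2 scale. In D30, CCNE2 was at 0.763, 0.825 and 1.41 CPM, from 13, 13 and 22 counts. The fall was 18.2-fold (log2 -4.18, SE 0.19, edgeR adjusted p 6.10e-09), the largest of the 10 genes in any comparison with untreated cells. It exceeded that in SK-N-AS by 2.12 on the log2 scale (95% interval -2.90 to -1.35, edgeR adjusted p 0.000136). The untreated lines thus lay in opposite orders for the E cyclins: CCNE1 was higher in SK-N-AS and CCNE2 in GIMEN. Within libraries, the log2 ratio of CCNE1 to CCNE2 counts ran from 1.76 to 3.07 in untreated SK-N-AS and from -1.11 to -1.01 in untreated GIMEN. Exons of INTS8 on the opposite strand overlap 47.6% of CCNE2. INTS8, looked up after its values were seen, changed by -0.68, -0.43, -0.42 and -0.40 on the log2 scale in S1D4, S2D4, S2D30 and GIMEN D30, and its part in the CCNE2 counts was not tested.

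**Figure D2:**
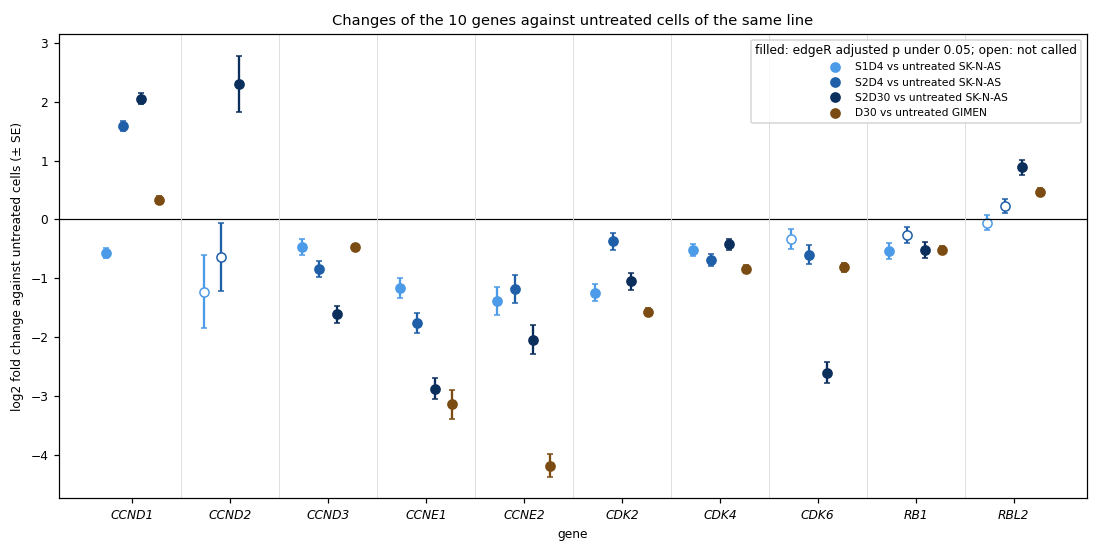
Log2 fold change of each gene against untreated cells of the same line, with its SE as bars; filled points passed an edgeR adjusted p of 0.05 and open points did not. CCNE1 fell by 2.88 and 3.14 on the log2 scale in the 30-day groups of SK-N-AS and GIMEN, while CCND1 rose by 2.05 and 0.34. The CCND2 point for S2D30 is a description only, because the gene passed the filter through that group.

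CDK2 encodes the kinase that E and A cyclins activate. Its level was 63.5, 60.1, 61.0 and 64.0 CPM in untreated SK-N-AS and 28.4, 28.2, 24.2 and 26.1 CPM in S1D4. In S2D4 it was 40.0, 44.3, 39.3 and 72.8 CPM, and in S2D30 32.5, 29.2, 28.997 and 32.1 CPM. S1D4 and S2D30 lay below untreated cells, while S2D4 overlapped with them because of its replicate 4, the highest of all 16 SK-N-AS libraries. The fall was 2.37-fold in S1D4 (log2 -1.24, SE 0.15, edgeR adjusted p 9.57e-06) and 2.08-fold in S2D30 (-1.05, SE 0.15, edgeR adjusted p 9.20e-06). The S2D4 value of -0.37 (SE 0.15, edgeR adjusted p 0.0377) was not called when any untreated library or S2D4 replicate 1, 2 or 3 was left out, with adjusted p-values of 0.0549 to 0.126, nor without a filter on low counts (0.078) or in a fit of these groups alone (0.116). Without S2D4 replicate 4 it was -0.63 (edgeR adjusted p 2.33e-06). CDK2 was higher in S2D4 than in S1D4 by 1.83-fold (edgeR adjusted p 0.000137) and lower in S2D30 than in S2D4 by 1.60-fold (edgeR adjusted p 0.00122). Without S2D4 replicate 4 these steps were 0.62 and -0.43 on the log2 scale and were still called.

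GIMEN had 105, 104 and 110 CPM of CDK2 untreated and 38.4, 37.9 and 33.0 CPM in D30. The groups were well apart, with a 2.97-fold fall (log2 -1.57, SE 0.07, edgeR adjusted p 4.56e-09). It exceeded the fall in SK-N-AS by 0.50 on the log2 scale (95% interval -0.74 to -0.27, edgeR adjusted p 0.00126).

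CDK4 encodes a kinase that D cyclins activate. Untreated SK-N-AS had 424, 340, 370 and 294 CPM, S1D4 266, 258, 252 and 241 CPM, S2D4 214, 235, 232 and 227 CPM, and S2D30 261, 280, 290 and 261 CPM. All treated libraries were below all untreated ones, and the treated groups lay close together. The falls were 1.43-fold in S1D4 (log2 -0.52, SE 0.10, edgeR adjusted p 0.000477), 1.61-fold in S2D4 (-0.69, SE 0.10, edgeR adjusted p 1.08e-05) and 1.34-fold in S2D30 (-0.42, SE 0.10, edgeR adjusted p 0.000903). The rise from S2D4 to S2D30 (0.27, edgeR adjusted p 0.0298) was not called under 4 alternatives, with adjusted p-values of up to 0.0829 (without S2D30 replicate 3).

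In GIMEN, CDK4 was at 321, 325 and 336 CPM untreated and at 199.96, 180.044 and 177 CPM in D30. The D30 libraries lay below all others in either line, and the fall was 1.80-fold (log2 -0.84, SE 0.06, edgeR adjusted p 3.45e-07). The difference between the 30-day changes was -0.40 (95% interval -0.73 to -0.07, edgeR adjusted p 0.0424). It was not called under 10 of 21 alternatives, with adjusted p-values of up to 0.0838 (without GIMEN D30 replicate 3). Untreated GIMEN and SK-N-AS overlapped (log2 difference -0.11, 95% interval -0.35 to 0.12), and without untreated SK-N-AS replicate 4 the difference was -0.21 (edgeR adjusted p 0.0344). TSPAN31 exons on the opposite strand overlap 51.9% of CDK4. TSPAN31, looked up after its values were seen, changed by 0.07, -0.13 and 0.28 on the log2 scale in S1D4, S2D4 and S2D30, and by 1.35 in GIMEN D30.

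CDK6 encodes the other D cyclin kinase. In untreated SK-N-AS it was at 302, 325 and 326 CPM in replicates 1 to 3 and at 629 CPM in replicate 4. S1D4 had 330, 320, 312 and 311 CPM, S2D4 265, 247, 267 and 288 CPM, and S2D30 64.5, 68.8, 62.9 and 69.4 CPM. S2D30 lay far below all other SK-N-AS libraries, S2D4 lay slightly below untreated cells, and S1D4 overlapped with them. The fall in S2D30 was 6.08-fold (log2 -2.60, SE 0.17, edgeR adjusted p 1.0e-09), or -2.29 on the log2 scale without untreated replicate 4. S2D4 was lower by 1.51-fold (-0.60, SE 0.16, edgeR adjusted p 0.00458), and S1D4 was not called (-0.33, 95% interval -0.68 to 0.01). Without untreated replicate 4 the S1D4 value was -0.02 and the S2D4 value -0.28 (edgeR adjusted p 0.0014). S2D30 was 4.02-fold below S2D4 (-2.01, SE 0.17, edgeR adjusted p 8.12e-08), while S2D4 was not called against S1D4 (-0.27, 95% interval -0.61 to 0.08).

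Untreated GIMEN had 188, 171 and 163 CPM of CDK6, 2.23-fold below untreated SK-N-AS (log2 -1.16, SE 0.18, edgeR adjusted p 2.17e-05), or -0.87 on the log2 scale without untreated SK-N-AS replicate 4. D30 had 97.7, 97.0 and 108 CPM. The D30 libraries were all lower, by 1.76-fold (log2 -0.82, SE 0.07, edgeR adjusted p 1.22e-06). The 30-day fall was smaller in GIMEN than in SK-N-AS by 1.80 on the log2 scale (95% interval 1.26 to 2.34, edgeR adjusted p 1.87e-05), and by 1.51 without untreated SK-N-AS replicate 4.

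The log2 ratio of CDK4 to CDK6 counts within a library does not depend on scaling. It was 0.49, 0.07, 0.18 and -1.10 in untreated SK-N-AS, lay between -0.37 and -0.07 in S1D4 and S2D4, and was 2.02, 2.03, 2.21 and 1.91 in S2D30. The S2D30 ratios were thus above those of all other libraries. In GIMEN the ratios overlapped, from 0.77 to 1.04 untreated and from 0.71 to 1.03 in D30, with changes of -0.84 for CDK4 and -0.82 for CDK6. Per kilobase of exon, CDK4 was at 132 ± 7.03 and CDK6 at 5.66 ± 0.273 CPM per kb in S2D30 (SD, n = 4), against 172 ± 26.3 and 33.7 ± 13.3 in untreated cells. The opposite-strand overlap of CDK4 given above limits the comparison of CDK4 with CDK6.

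**Figure D3:**
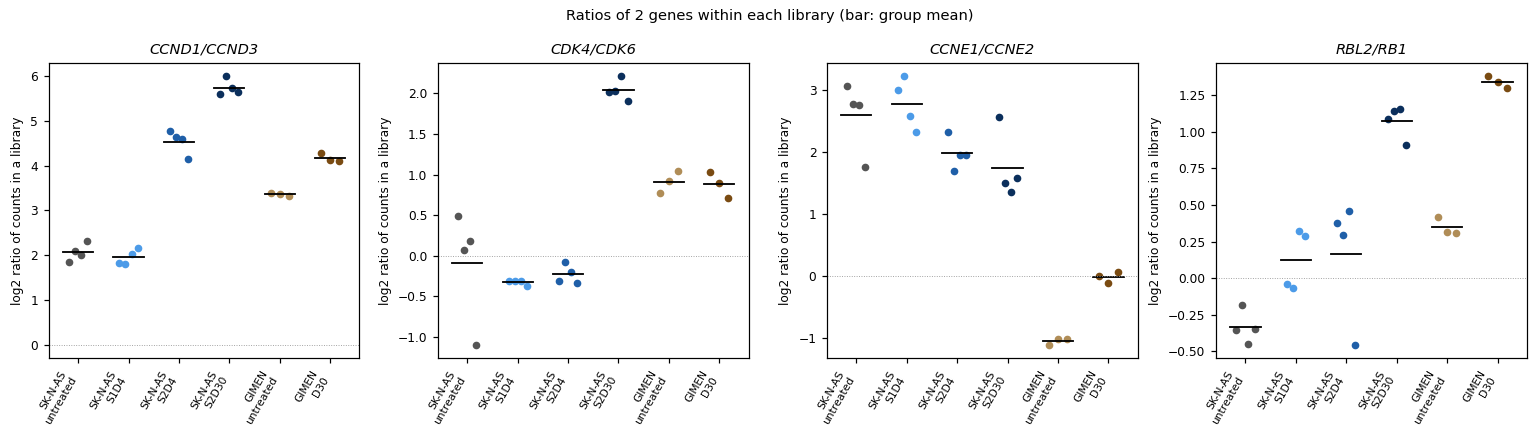
Log2 ratio of the counts of paired genes in each library, 1 panel per pair, with bars at the group means. CDK4 to CDK6 is near 2.04 on average in S2D30 and near or under 0 in the other SK-N-AS groups; CCND1 to CCND3 goes from 2.07 in untreated SK-N-AS to 5.74 in S2D30, and RBL2 to RB1 from -0.33 to 1.07.

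RB1 encodes the retinoblastoma protein, the main brake that the D cyclin kinases release. Untreated SK-N-AS had 62.4, 58.3, 68.0 and 90.9 CPM, with replicate 4 the highest. S1D4 had 49.0, 47.7, 48.6 and 50.8 CPM, S2D4 54.8, 56.7, 50.3 and 76.8 CPM, and S2D30 49.7, 48.1, 45.8 and 56.5 CPM. S1D4 and S2D30 were below all untreated libraries, and S2D4 overlapped with them. RB1 fell 1.45-fold in S1D4 (log2 -0.54, SE 0.13, edgeR adjusted p 0.00444) and 1.43-fold in S2D30 (-0.52, SE 0.13, edgeR adjusted p 0.00256). Over all settings run the S1D4 value ranged from -0.61 to -0.39 and the S2D30 value from -0.59 to -0.36. S2D4 was not called (-0.26, 95% interval -0.54 to 0.02), and without S2D4 replicate 4 it was (-0.41, edgeR adjusted p 0.00578).

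In GIMEN, RB1 was at 81.1, 86.2 and 85.3 CPM untreated and at 58.7, 57.6 and 63.1 CPM in D30. The groups did not overlap, with a 1.44-fold fall (log2 -0.52, SE 0.06, edgeR adjusted p 1.70e-05). In the model of both lines the 30-day changes were -0.55 in SK-N-AS and -0.54 in GIMEN, and the interval of their difference ran from -0.34 to 0.36 on the log2 scale. Untreated GIMEN was called above untreated SK-N-AS (0.29, edgeR adjusted p 0.0343), though the libraries overlapped and the call was lost under 9 alternatives, with an adjusted p of up to 0.299 under upper-quartile scaling.

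RBL2 encodes the pocket protein that builds up in resting cells. Its level was 48.7, 51.3, 49.9 and 71.4 CPM in untreated SK-N-AS and 47.7, 45.4, 60.7 and 62.1 CPM in S1D4. In S2D4 it was 70.9, 69.4, 69.1 and 55.9 CPM, and in S2D30 106, 106, 102 and 106 CPM. S2D30 lay above all other SK-N-AS libraries, while the other 3 groups overlapped. The rise in S2D30 was 1.85-fold (log2 0.89, SE 0.13, edgeR adjusted p 8.71e-06), and 1.58-fold against S2D4 (0.66, SE 0.13, edgeR adjusted p 0.00036). S1D4 (-0.06, 95% interval -0.33 to 0.21) and S2D4 (0.23, 95% interval -0.04 to 0.50) were not called against untreated cells. Without untreated replicate 4 the S2D4 value was 0.38 (edgeR adjusted p 0.00859), and without S2D4 replicate 4 it was 0.30 (edgeR adjusted p 0.0400).

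GIMEN had 108, 107 and 105 CPM of RBL2 untreated, near the level of S2D30, and 153, 146 and 155 CPM in D30. The D30 libraries were all higher, by 1.39-fold (log2 0.47, SE 0.06, edgeR adjusted p 1.50e-05). Exons of AKTIP and AC007342.6 on the opposite strand overlap 20.2% of RBL2. AKTIP, looked up after its values were seen, changed by 0.63 in S2D30 and 0.77 in GIMEN D30. The difference between the 30-day changes of RBL2, -0.40 (95% interval -0.70 to -0.11, edgeR adjusted p 0.0243), was not called without GIMEN D30 replicate 2 (0.0566) or in a model of all 22 libraries (0.0533). The log2 ratio of RBL2 to RB1 counts was -0.45 to -0.18 in untreated SK-N-AS and 0.91 to 1.15 in S2D30. In GIMEN it was 0.31 to 0.41 untreated and 1.30 to 1.38 in D30. In both lines the pocket protein ratio was thus higher in every 30-day library than in every untreated one.

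Step by step within SK-N-AS, 2 of the 10 genes were higher and 2 lower in S2D4 than in S1D4 (55.1% of all genes called, 28.3% higher and 26.8% lower). The 4 genes without overlap (49.5% of all genes) were partly others. They were CCND1 and CDK2, which were called, and CDK4 and CDK6, which were not, while CCND3 and CCNE1 overlapped. From S2D4 to S2D30, 3 of the 9 genes other than CCND2 were higher and 5 lower (51.3% of all genes called, 24.4% higher and 26.9% lower). Of these 9, 8 were without overlap (50.3% of all genes). CCND1 and CDK2 were higher in S2D4 than in S1D4, and CCND3 and CCNE1 lower. CCND1, CDK4 and RBL2 were higher in S2D30 than in S2D4, and CCND3, CCNE1, CCNE2, CDK2 and CDK6 lower. Leaving out S2D4 replicate 4 gave 3 higher and 2 lower in the first step, and 5 lower in the other.

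Between untreated lines, 6 of the 10 genes were higher in GIMEN and 2 lower (73.9% of all genes called, 35.3% higher and 38.6% lower). Of the 9 genes other than CCND2, 7 were without overlap (71.7% of all genes). CCND1 was higher by 4.88-fold, CCNE2 by 2.41-fold, CCND3 by 1.99-fold, RBL2 by 1.96-fold and CDK2 by 1.73-fold. RB1 was higher by 1.22-fold, with the reservation given above, and CCNE1 and CDK6 were lower. In the 30-day response, GIMEN minus SK-N-AS was called positive for 2 genes (CCND3 and CDK6) and negative for 5 (CCND1, CCNE2, CDK2, CDK4 and RBL2), where 49.7% of all genes were called, 25.2% positive and 24.5% negative. All 9 genes tested in both lines moved in the same direction at 30 days, so these are differences of size. Line, dose and medium differ together here and cannot be told apart.

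The other genes of the pathway were taken from lists written by function. Of the 11 RB and E2F partners, 8 were lower in S1D4, 6 in S2D4, 9 in S2D30 and 7 in GIMEN D30, and 0, 0, 1 and 1 were higher, with median log2 fold changes of -0.75, -0.31, -0.91 and -0.39. The genes called were 72.7%, 54.5%, 90.9% and 72.7% of the list, against 40.1%, 63.1%, 70.3% and 71.4% of all genes. E2F1, an activator of S phase genes, was at 197 ± 9.32 CPM in untreated SK-N-AS and at 8.18 ± 0.787 CPM in S2D30 (SD, n = 4). Its log2 fold change was -4.62 (SE 0.27). In GIMEN it was at 94.5 ± 5.55 CPM untreated and at 11.8 ± 1.47 CPM in D30 (SD, n = 3), a change of -3.03 (SE 0.09). E2F2 changed by -6.42 and -4.21 and E2F8, a repressor that is itself made in S phase, by -6.93 and -5.96 in the 30-day groups of SK-N-AS and GIMEN. RBL1, the pocket protein of cycling cells, fell by 0.71 and 1.82, where RBL2 rose.

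The other E2F genes moved less. E2F4, which binds pocket proteins in resting cells, changed by -0.46 and -0.39 at 30 days and E2F3 by -0.71 in S2D30, and E2F3 was not called in GIMEN (0.00). E2F5, also a partner of RBL2, changed by -0.91 in S2D30 and was not called in GIMEN (0.23). E2F6 was not called in S2D30 (0.11) and rose by 0.39 in GIMEN D30. E2F7, a repressor like E2F8, rose in S2D30 (1.25, SE 0.31) and was not called in GIMEN (-0.07). TFDP1 and TFDP2, whose proteins pair with E2Fs, changed by -3.04 and -1.17 in S2D30 and by -1.41 and -0.35 in GIMEN D30.

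Of the 7 CDK inhibitor genes, 3 were higher and 0 lower in S1D4, 4 and 2 in S2D4, 5 and 2 in S2D30, and 5 and 1 of the 6 tested in GIMEN D30. The shares called were 42.9%, 85.7%, 100% and 100%, against 40.1%, 63.1%, 70.3% and 71.4% of all genes. CDKN1A, whose product binds cyclin E with CDK2, was at 12.1 ± 1.85 CPM in untreated SK-N-AS and at 131 ± 15.02 CPM in S1D4 (SD, n = 4). It reached 554 ± 55.7 CPM in S2D4 and 359 ± 35.95 CPM in S2D30 (SD, n = 4). CDKN2B, which blocks CDK4 and CDK6, was at 3.27 ± 1.42 CPM untreated and 135 ± 8.37 in S2D30 (SD, n = 4), and in GIMEN at 72.6 ± 1.61 and 389 ± 19.2 CPM (SD, n = 3). CDKN2C, another CDK4 and CDK6 inhibitor, went the other way, by -3.77 in S2D30 and -3.98 in GIMEN D30 on the log2 scale. CDKN1B was also called lower in S2D4 (-0.85) and S2D30 (-0.69). In GIMEN it was at 33.5 ± 1.22 CPM untreated and at 71.8 ± 4.02 CPM in D30 (SD, n = 3).

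Downstream of the G1 switch lie the genes of DNA replication and mitosis. Of the 15 S phase E2F targets, 15 were lower in S1D4, 14 in S2D4, 15 in S2D30 and 15 in GIMEN D30, with median log2 fold changes of -1.15, -1.36, -2.56 and -3.44, where the median over all genes was between -0.034 and 0.016. The genes called were 100%, 93.3%, 100% and 100% of these targets, against 40.1%, 63.1%, 70.3% and 71.4% of all genes. The 5 later cyclin and CDK1 genes were called lower in each of these comparisons (100% of the list), with medians of -1.77, -2.75, -5.41 and -5.61. RRM2, a subunit of ribonucleotide reductase, changed by -2.16 in S1D4, -2.78 in S2D4 and -6.77 in GIMEN D30, and CDC45, part of the replicative helicase, by -6.41 in S2D30. Of the 6 genes of the MuvB and B-MYB list, 0 were higher and 3 lower in S1D4, 1 and 3 in S2D4, 2 and 3 in S2D30, and 1 and 4 in GIMEN D30. The shares called were 50%, 66.7%, 83.3% and 83.3%, against the 40.1%, 63.1%, 70.3% and 71.4% of all genes. MYBL2, which replaces pocket proteins on MuvB in cycling cells, changed by -9.84 in S2D30 and -7.71 in GIMEN D30, and the MuvB subunits went both ways. LIN37 changed by 0.86 and 0.47, LIN9 by -1.81 and -1.31 and RBBP4 by -0.62 and -0.56. LIN52 changed by 0.52 in S2D30 and was not called in GIMEN (-0.23), and LIN54 was not called in S2D30 (-0.07) and changed by -0.68 in GIMEN D30. SKP2, which targets CDK inhibitors for turnover, changed by -4.06 in S2D30 and -2.10 in GIMEN D30.

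**Figure D4:**
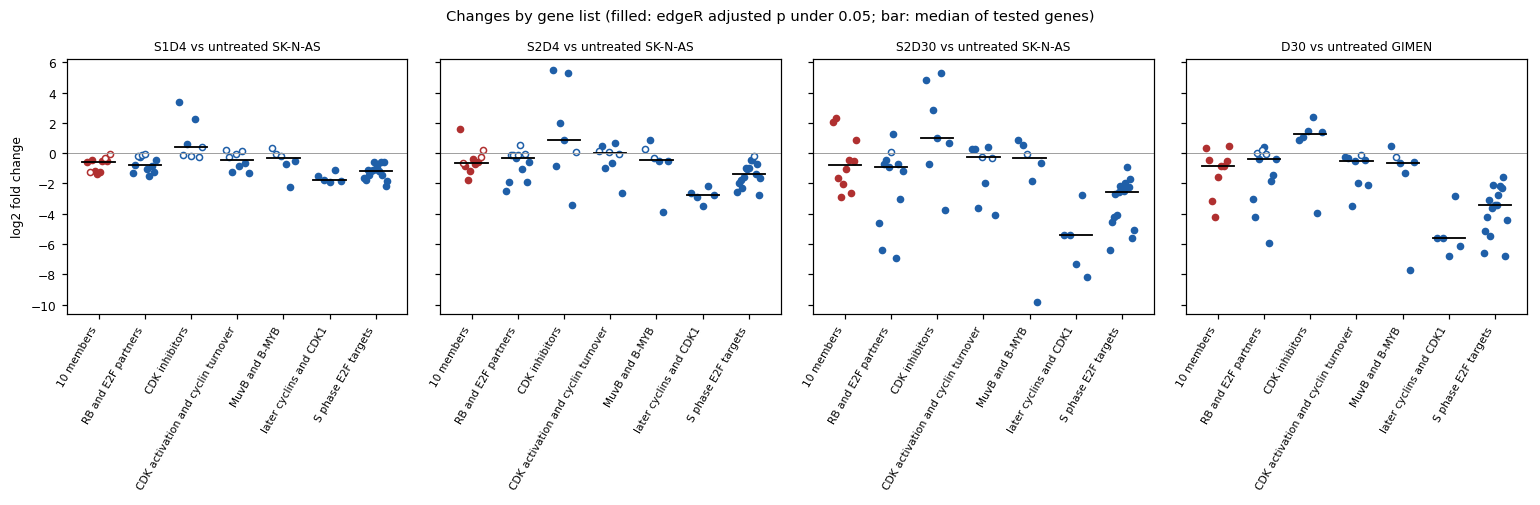
Log2 fold change of every tested gene in each list in the 4 comparisons with untreated cells; red points are the 10 genes, blue points the genes of the other lists, filled where the edgeR adjusted p was under 0.05, and bars are medians. The later cyclins and CDK1 (medians from -1.77 to -5.61) and the S phase targets (-1.15 to -3.44) lie below the 10 genes, whose medians, with CCND2 counted where it was tested, run from -0.56 to -0.82.

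Finally, for 8 of the 10 genes the one other gene with the nearest pattern over the 4 log2 fold changes against untreated cells was found, by root mean square difference, among about 9960 genes with a mean of at least 10 CPM. The likeness is over 4 values of which 3 share controls, and is a description. CDK4 lay nearest to MRPL36, at 0.041 on the log2 scale, and 224 genes lay within 0.25. RBL2 lay nearest to KIF16B (0.046, with 310 genes within 0.25), CCNE1 to ECT2 (0.069, with 6), RB1 to PTPMT1 (0.071, with 560), CDK6 to GNG4 (0.077, with 7), CCND3 to CFDP1 (0.087, with 59) and CDK2 to SNRPG (0.13, with 9). CCNE2, nearest to CENPH at 0.28, had no gene within 0.25. Patterns like those of RB1, RBL2 and CDK4, of small change, were thus common, and that of CCNE2 had no near neighbour among these genes. CCNE2 itself did not reach a mean of 10 CPM. The SEs of its 4 changes, 0.19 to 0.25, were about as wide as the window, so an empty window does not show an unusual pattern.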

How the data were processed

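RNA from 22 samples was sequenced paired-end on an Illumina HiSeq X, per the labels' protocols. The authors deposited 1 table of raw counts per gene, whole numbers without normalization, and the aligner, genome build, annotation and strand setting are not given in the sources used here. Groups and replicate numbers come from the labels. The 10 genes and the 10 lists (81 genes) were chosen with earlier results of these data known.

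The tests used edgeR 4.0.16 under R 4.3.3, with filterByExpr (minimum count 10, minimum total 15), TMM scaling, the quasi-likelihood test and Benjamini-Hochberg adjustment over all genes tested, called at 0.05. The models held the 16 SK-N-AS libraries (15810 genes), the 6 GIMEN libraries (13517) and, for differences between lines, the 14 untreated and 30-day libraries (16246). Levels in CPM used 1 TMM scaling of all 22 libraries. Exon lengths and overlaps are from GENCODE v29 and promoters from RefSeq. The scripts were tested on simulated data. Named were the 10 genes, RBL1 and E2F1 to E2F8, in the other lists the called genes with the largest rise and fall (at least 10 CPM on average), and the gene with the nearest pattern to each of the 10, which for CCND1 is not reported here and for CCND2 was not computed. TFDP1, TFDP2, the overlapping neighbours, markers at 0 and some values of list genes in further comparisons were named after their values were seen. Alternatives were DESeq2 1.42.0 (size factors and test), upper-quartile scaling, other filters, other sets of libraries in the model, a replicate block and leaving out each library. Totals of 16456484 to 37506800 counts set the precision, and no replicate pair was a repeated library.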

Additional observations from a re-analysis of the deposited data

Results flagged for a closer look

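In 10 of the 40 SK-N-AS groups of 4 libraries examined (10 genes, 4 groups), 1 library lay apart from the other 3 by Dixon's criterion. For a single group of normal values, chance gives this in about 1 of 20. The 10 genes share the same libraries, so the count of 10 cannot be set against that rate. Untreated replicate 4 was the library in 3 of them: CDK6 at 629 CPM (302 to 326 in the others), RBL2 at 71.4 CPM (48.7 to 51.3) and CCNE2 at 10.9 CPM (5.94 to 6.73). S2D4 replicate 4 was the library in 3 others: CDK2 at 72.8 CPM (39.3 to 44.3), CCND3 at 38.2 CPM (22.4 to 24.4) and RBL2 at 55.9 CPM (69.1 to 70.9). The remaining cases were CCND3 in S1D4 replicate 4 (32.3 CPM against 35.8 to 36.3) and in S2D30 replicate 2 (14.23 CPM against 16.3 to 16.8), CCNE2 in S2D30 replicate 1 (1.23 CPM against 2.04 to 2.13), and CCND2 in S1D4 replicate 1 (0.281 CPM against 0 to 0.0471). Groups of 3 GIMEN libraries were not examined in this way.

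The 30-day change differed between the lines, by a test of the difference itself, for 7 of the 10 genes, where 49.7% of all genes were called. The calls for CDK4 and RBL2 were lost under some alternatives, and the count ranged from 5 to 7 with 1 library left out. GIMEN minus SK-N-AS was -2.12 for CCNE2, -1.70 for CCND1, -0.50 for CDK2, -0.40 for CDK4 and -0.40 for RBL2, and it was 1.80 for CDK6 and 1.16 for CCND3, on the log2 scale. Doses, media and basal levels differ between the lines, and their parts cannot be told apart.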

How the results depend on the processing

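The count of the 10 genes called (CCND2 counted where tested) stayed within 1.5 times its value in all 8 comparisons and under all alternatives run. With 1 library left out it was 7 to 8 in S1D4, 6 to 9 in S2D4 and 9 in GIMEN D30 against untreated cells. In S2D30 all 9 genes other than CCND2 were called each time. The count was 3 to 5 in S2D4 against S1D4, and in S2D30 against S2D4 only CDK4 lost its call. The count was 7 to 9 between untreated lines and 5 to 7 for the difference of the 30-day changes. Group levels depended more on scaling. Of the levels in CPM under other scalings, 85 lay within the group's SD of the main value and 35 lay further away. Directions of change turned for 2 values near 0. RBL2 in S1D4 (-0.06) ranged from -0.13 to 0.089 with 1 library left out. The RB1 difference between the 30-day changes (0.0097) was -0.0034 with DESeq2 size factors, -0.0037 with the DESeq2 test, -0.0114 in a model of all 22 libraries and -0.0035 with the replicate block, and ranged from -0.12 to 0.094 with 1 library left out; the cause was not tested.

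Same-numbered libraries did not deviate together throughout: the lowest correlation of a pair was between -0.10 and 0.04 in each comparison within a line. In S1D4 against untreated SK-N-AS, however, replicates 1, 2 and 4 correlated at 0.27, 0.27 and 0.29, and replicate 3 at 0.04. The numbers were not taken as pairs in the main tests. With the replicate block, 7 genes were called in S1D4 (40.8% of all genes), 8 in S2D4 (63.6%) and 9 in GIMEN D30 (69.7%). In S2D30 all 9 genes other than CCND2 were called (70.9%). In S2D4 against S1D4, 5 were called (55.7%), and in S2D30 against S2D4 all 9 other than CCND2 (51.6%). For the difference of the 30-day changes it was 7 (49.2%). A block on the number alone, chosen after seeing the data, gave 8 between untreated lines (74.3%). Depth limited CCND2, and in GIMEN D30 the E cyclins, which rest on 12 to 23 counts per library.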
